A study of Homo sapiens with 6 samples.

Results

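Mitosis and G2/M genes were examined in LX-2 cells, an established human line of hepatic stellate cell origin, after stimulation with recombinant human Sema3C (rhSema3C), a secreted semaphorin. The group held 36 genes, taken by name from the 33900 genes of the deposited table. Wild-type LX-2 cells were cultured in DMEM with fetal bovine serum and antibiotics. They then received rhSema3C at 300 ng/ml or PBS for 48 h, with 3 samples labelled as biological replicates in each group, and their mRNA was sequenced. The only contrast was rhSema3C against PBS in this 1 line, and the labels do not say whether the replicates were separate cultures, so p-values measure the spread between these samples. Of 12 stellate cell markers looked up, VIM, COL1A1, COL3A1, ACTA2, THY1 and PDGFRB were present, while LRAT, GFAP, DES and COL1A2 lay near 0. Of the markers of other cell types, 4 of 5 hepatocyte, 4 of 5 endothelial, 3 of 5 epithelial and 2 of 4 leukocyte genes in the table averaged under 0.5 FPKM (fragments per kilobase, scaled to depth), ALB, CDH5, EPCAM and PTPRC among them. The others were present, namely CD68 at 93.4 FPKM in PBS and 66.9 in rhSema3C, CD14 at 4.69 and 2.88, SOX9 at 9.94 and 5.45, KRT7 at 2.95 and 3.21, SERPINA1 at 2.78 and 3.86 and KDR at 0.723 and 0.720 FPKM.

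Between DNA replication and cell division, a cell passes through G2 and enters mitosis when CDK1, bound to cyclin B or cyclin A, becomes active. Aurora and Polo-like kinases then build the spindle, the checkpoint proteins hold the cell until every chromosome is attached, and the anaphase-promoting complex (APC/C) with CDC20 marks securin and cyclin B for destruction. Many of the genes involved are transcribed late in the cycle under the DREAM, B-MYB and FOXM1 factors, so that their RNA level is widely read as a sign of how many cells divide. In RNA from whole cultures, fewer cells in mitosis and less RNA per mitotic cell cannot be told apart.

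Promoters of these genes are known for CCAAT boxes, which bind NF-Y, and for the cell cycle genes homology region, a short element recognised by the DREAM and B-MYB complexes. A RefSeq promoter on GRCh38.p14 was found for 31 of the 36 genes, with none for TPX2, AURKA, UBE2C, TTK and BIRC5. The first start listed for each gene was used, with 250 bases before it and 50 after. Within these 300 bases, CCAAT on either strand occurred in 24 of 31 promoters (77.4%), against 35.7% of all 27305 promoters of that length. TTTGAA or TTCGAA on either strand occurred in 22 of 31 (71.0%), against 16.6% of all promoters, and both motifs in 18 (58.1%), against 6.58%. The 150 bases before the start are printed here for 4 genes that fell most among those with a promoter entry (PLK1, KIF20A, MKI67 and CDC20), for CCNB1, whose level hardly moved, and for BUB1 and CENPE, which rose. Each reads 5′ to 3′ on the strand of the gene, and capitals mark the CCAAT box, which reads ATTGG on the other strand, and the homology region motif.
PLK1: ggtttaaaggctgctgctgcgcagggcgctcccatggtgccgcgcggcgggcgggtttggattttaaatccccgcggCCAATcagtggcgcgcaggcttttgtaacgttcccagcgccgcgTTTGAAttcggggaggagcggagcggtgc
CDC20: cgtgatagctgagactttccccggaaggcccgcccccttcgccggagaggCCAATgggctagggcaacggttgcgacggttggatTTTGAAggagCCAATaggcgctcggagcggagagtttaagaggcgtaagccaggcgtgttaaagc
KIF20A: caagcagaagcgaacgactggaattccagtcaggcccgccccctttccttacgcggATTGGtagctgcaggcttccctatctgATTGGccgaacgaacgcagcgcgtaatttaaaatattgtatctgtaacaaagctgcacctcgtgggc
MKI67: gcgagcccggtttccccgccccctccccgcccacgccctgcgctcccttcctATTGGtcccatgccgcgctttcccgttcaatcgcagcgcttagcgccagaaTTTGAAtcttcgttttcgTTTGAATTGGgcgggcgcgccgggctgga
CCNB1: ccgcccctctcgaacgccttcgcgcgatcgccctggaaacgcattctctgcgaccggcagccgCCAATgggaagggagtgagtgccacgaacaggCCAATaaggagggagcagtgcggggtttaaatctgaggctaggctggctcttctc
BUB1: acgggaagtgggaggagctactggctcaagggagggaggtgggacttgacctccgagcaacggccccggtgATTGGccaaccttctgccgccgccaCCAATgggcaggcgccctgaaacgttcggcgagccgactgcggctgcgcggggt
CENPE: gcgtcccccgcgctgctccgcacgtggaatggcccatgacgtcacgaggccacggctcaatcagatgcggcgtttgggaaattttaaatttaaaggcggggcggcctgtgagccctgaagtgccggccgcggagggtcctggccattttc
The PLK1 stretch is chr16:23678739-23678888, plus strand, inside the table's span of the gene, and it holds 1 CCAAT box and 1 TTTGAA. That of CDC20 is chr1:43358831-43358980, plus strand, with 2 CCAAT boxes and 1 TTTGAA. For KIF20A it is chr5:138178962-138179111, plus strand, also inside the span of its gene, and for MKI67 chr10:128126424-128126573, minus strand. CCNB1 lies at chr5:69167000-69167149, plus strand, and BUB1 at chr2:110678064-110678213, minus strand. CENPE, at chr4:103198344-103198493, minus strand, had neither motif in the printed stretch. The stretches of CCNB1 and CENPE lie partly inside the spans of their genes. Both motifs occurred in the 300 bases of 6 of 11 genes that fell, 3 of 6 that rose and 9 of 14 that did neither. A match of these letters is a description of the sequence and not a bound site.

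All 36 genes passed the filter on low values, with counts between 707 and 28250 per sample. Levels are given as CPM, counts scaled to the library size after TMM normalisation (trimmed mean of M values), and were compared by the quasi-likelihood test of edgeR with Benjamini-Hochberg adjustment over 14178 genes. A gene is said to rise or fall where the adjusted p was below 0.05. With rhSema3C, 15 of the 36 genes fell (41.7%) and 6 rose (16.7%), while the remaining 15 did neither. Among all genes tested, 30.6% fell and 31.7% rose, so calls were common in this contrast. Their median log2 fold change was -0.11, compared with 0.02 over all genes. None changed by more than 2-fold with an adjusted p below 0.05, a rule that 5.37% of all genes met. BIRC5 came nearest, at a log2 fold change of -0.996.

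In 17 genes all 3 rhSema3C samples lay below all 3 PBS samples, in 6 they lay above, and in 13 the groups overlapped, against 33.3% below and 34.6% above over all genes. For any single gene the smallest exact two-sided permutation p with 3 against 3 samples is 0.1, so the calls rest on the model fitted across genes. Summed over the 36 genes, the level was 4072, 3983 and 4028 CPM in PBS and 3414, 3612 and 3404 CPM in rhSema3C. Replicates were close, with a median coefficient of variation of 4.45% in PBS and 5.17% in rhSema3C.

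**Figure D1:**
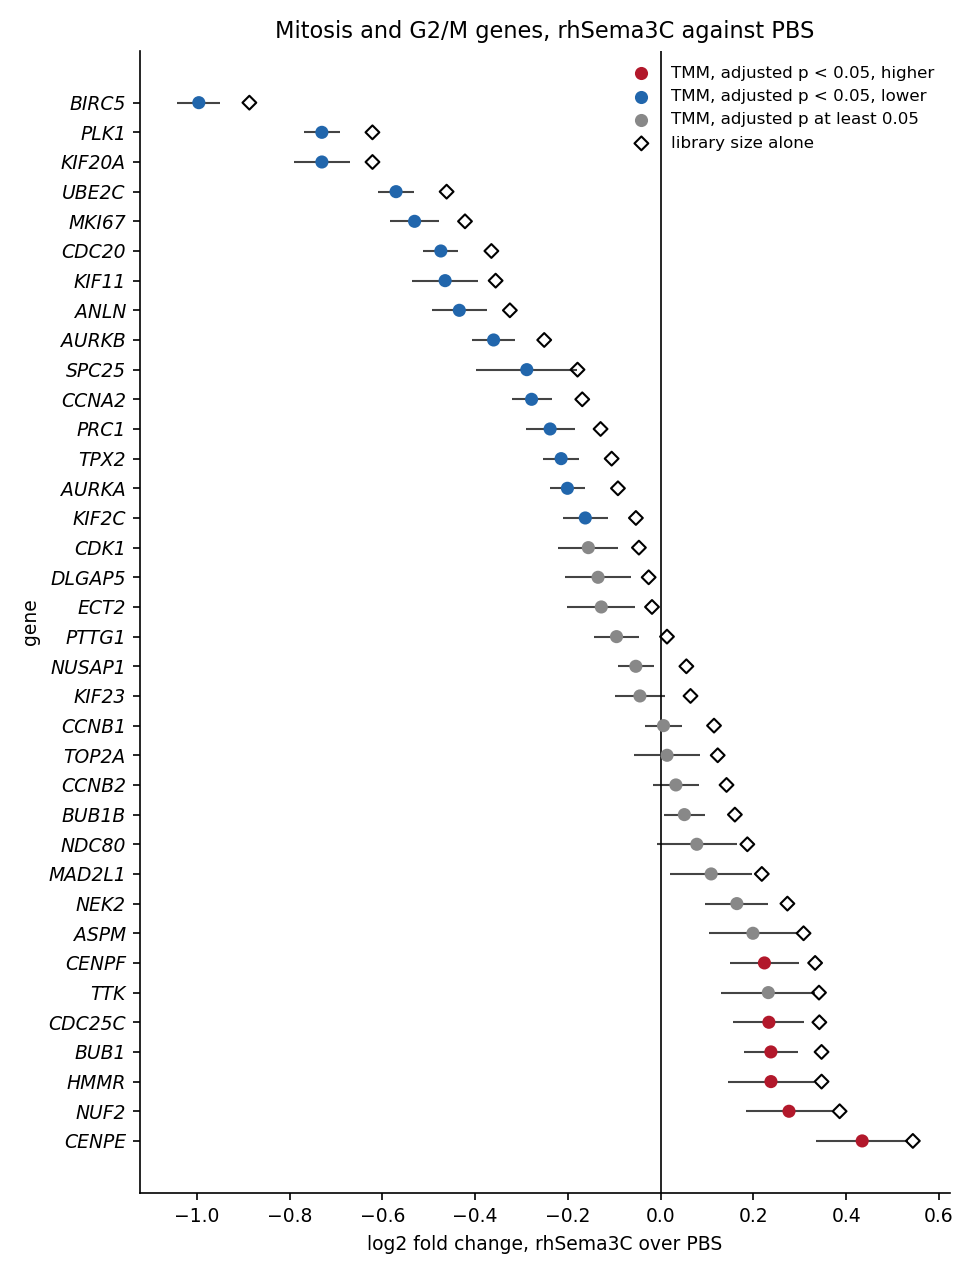
Log2 fold change (horizontal axis) of each of the 36 genes with rhSema3C against PBS, with filled points and standard error bars for TMM, coloured by call, and open diamonds for library size alone. Under TMM the values run from -0.996 for BIRC5 to 0.43 for CENPE, and 15 genes fell while 6 rose.

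The balance of falls and rises depended on the scaling between samples. TMM factors were 0.958 to 0.968 in PBS and 1.03 to 1.04 in rhSema3C. With library size alone the median of all genes moved up by 0.11 on the log2 scale, and the mitotic genes moved with it, to a median of -0.0027, where all genes had 0.13. Under that scaling 12 genes fell and 12 rose, against 24.1% and 39.9% of all genes. The summed level of the mitotic genes was then 3923, 3815 and 3899 CPM in PBS. In rhSema3C it was 3529, 3752 and 3550 CPM, so the groups lay closer together than under TMM. The 12 that fell were all among the 15, the calls of SPC25, AURKA and KIF2C being lost. All 6 that rose kept their call, and ASPM, BUB1B, CCNB1, CCNB2, NEK2 and TTK joined them. PTTG1, NUSAP1 and KIF23, none of them called, changed sign. On log2(TPM + 1) with limma, 9 genes fell (25%) and 18 rose (50%), against 17.1% and 48.9% of all genes. The median on that scale was 0.11, below the 0.23 of all genes.

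**Figure D2:**
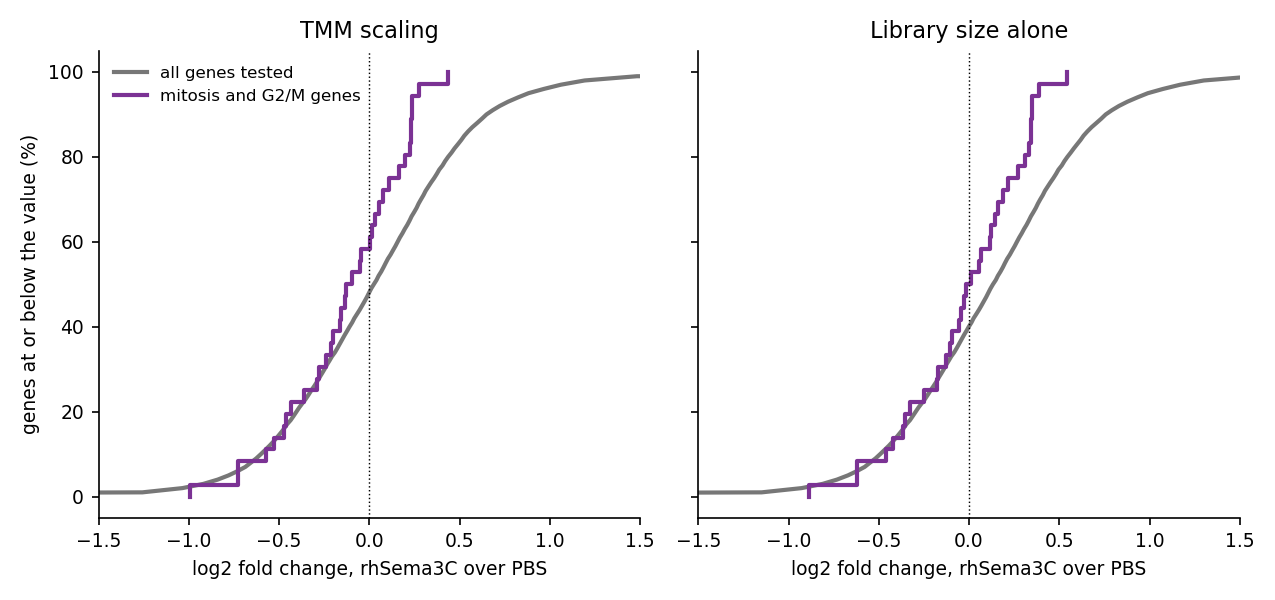
Percentage of genes at or below each log2 fold change, for the 36 genes and for all 14178 genes tested, under TMM (left) and with library size alone (right). The median of the mitotic genes is -0.11 against 0.02 for all genes under TMM, and -0.0027 against 0.13 with library size alone.

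Of the 5 mitotic kinase and passenger complex genes, 4 fell, BIRC5 the most of all 36. BIRC5, which encodes survivin, the subunit that targets Aurora B to centromeres (chr17:78214186-78225636, GRCh38), was at 176.5, 160.7 and 161.4 CPM in PBS and 83.8, 84.5 and 81.8 CPM in rhSema3C. Every treated sample lay far below every control. Its log2 fold change was -0.996 ± 0.05 (SE, adjusted p = 2.4e-08), so that the level decreased by 49.9%. PLK1, the Polo-like kinase of mitotic entry and spindle assembly (chr16:23677656-23690366), measured 129.7, 133.5 and 131.3 CPM in PBS and 80.8, 78.6 and 78.4 CPM in rhSema3C. Replicates differed little and the groups were wide apart, at a log2 fold change of -0.73 ± 0.04 (adjusted p = 6.9e-08). AURKB, the Aurora kinase of the passenger complex (chr17:8204733-8210600), was at 99.3, 105.6 and 98.0 CPM in PBS and 79.9, 80.1 and 76.0 CPM in rhSema3C. It fell by 0.36 on the log2 scale (SE 0.05, adjusted p = 4.6e-05). AURKA, the Aurora kinase of the spindle poles, fell by 0.20 (adjusted p = 0.00084), from 142.9, 141.3 and 143.2 CPM to 127.2, 123.3 and 121.2 CPM. NEK2, a centrosome kinase, stood at 24.0, 22.7 and 23.6 CPM in PBS and 25.6, 27.1 and 26.1 CPM in rhSema3C, a log2 difference of 0.16 (adjusted p = 0.054). Its groups did not overlap, with the treated samples above, although the test was not passed.

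Of CDK1, its cyclins and its phosphatase, 1 gene fell and 1 rose among 5. CDK1, the kinase that drives entry into mitosis, was at 96.2, 90.4 and 90.3 CPM in PBS and 79.0, 92.1 and 77.4 CPM in rhSema3C. Treated replicates 1 and 3 were below the controls and replicate 2 was among them, with a log2 difference of -0.16 (adjusted p = 0.055). Without rhSema3C replicate 2, CDK1 passed the threshold as lower. CCNB1, the main mitotic cyclin (chr5:69167135-69178245), measured 295.6, 300.2 and 312.3 CPM in PBS and 307.8, 304.1 and 300.0 CPM in rhSema3C. The groups overlapped, and the log2 difference was 0.01 ± 0.04 (adjusted p = 0.91). CCNB2, the second B-type cyclin, had a log2 difference of 0.03 (adjusted p = 0.58), again with overlap. CCNA2, the cyclin of S phase and G2, fell by 0.28 on the log2 scale (SE 0.04, adjusted p = 0.00018), from 103.2, 105.6 and 98.5 CPM to 83.7, 83.9 and 85.7 CPM, and EXOSC9 on its other strand held 40.1% as many counts. CDC25C, the phosphatase that activates CDK1, rose from 30.9, 26.7 and 27.2 CPM to 35.2, 32.5 and 32.1 CPM, a log2 fold change of 0.23 ± 0.08 (adjusted p = 0.020).

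Of the 3 genes for an activator, a ubiquitin-conjugating enzyme and a substrate of the APC/C, 2 fell. CDC20, its mitotic activator (chr1:43358981-43363203), was at 153.6, 152.9 and 151.7 CPM in PBS and 111.2, 111.2 and 107.4 CPM in rhSema3C. The groups did not overlap, and the log2 fold change was -0.47 ± 0.04 (adjusted p = 1.2e-06). UBE2C, the ubiquitin-conjugating enzyme that starts chains on APC/C substrates (chr20:45812576-45816957), measured 200.2, 197.3 and 197.4 CPM in PBS and 132.8, 137.3 and 130.5 CPM in rhSema3C. All treated samples were lower, by 0.57 ± 0.04 on the log2 scale (log2 fold change -0.57, adjusted p = 3.8e-07). PTTG1, the securin that the complex destroys at anaphase, was at 84.7, 84.5 and 91.0 CPM in PBS and 81.5, 83.8 and 78.2 CPM in rhSema3C. Its treated samples were just below the controls, with a log2 difference of -0.10 that missed the threshold (adjusted p = 0.11).

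**Figure D3:**
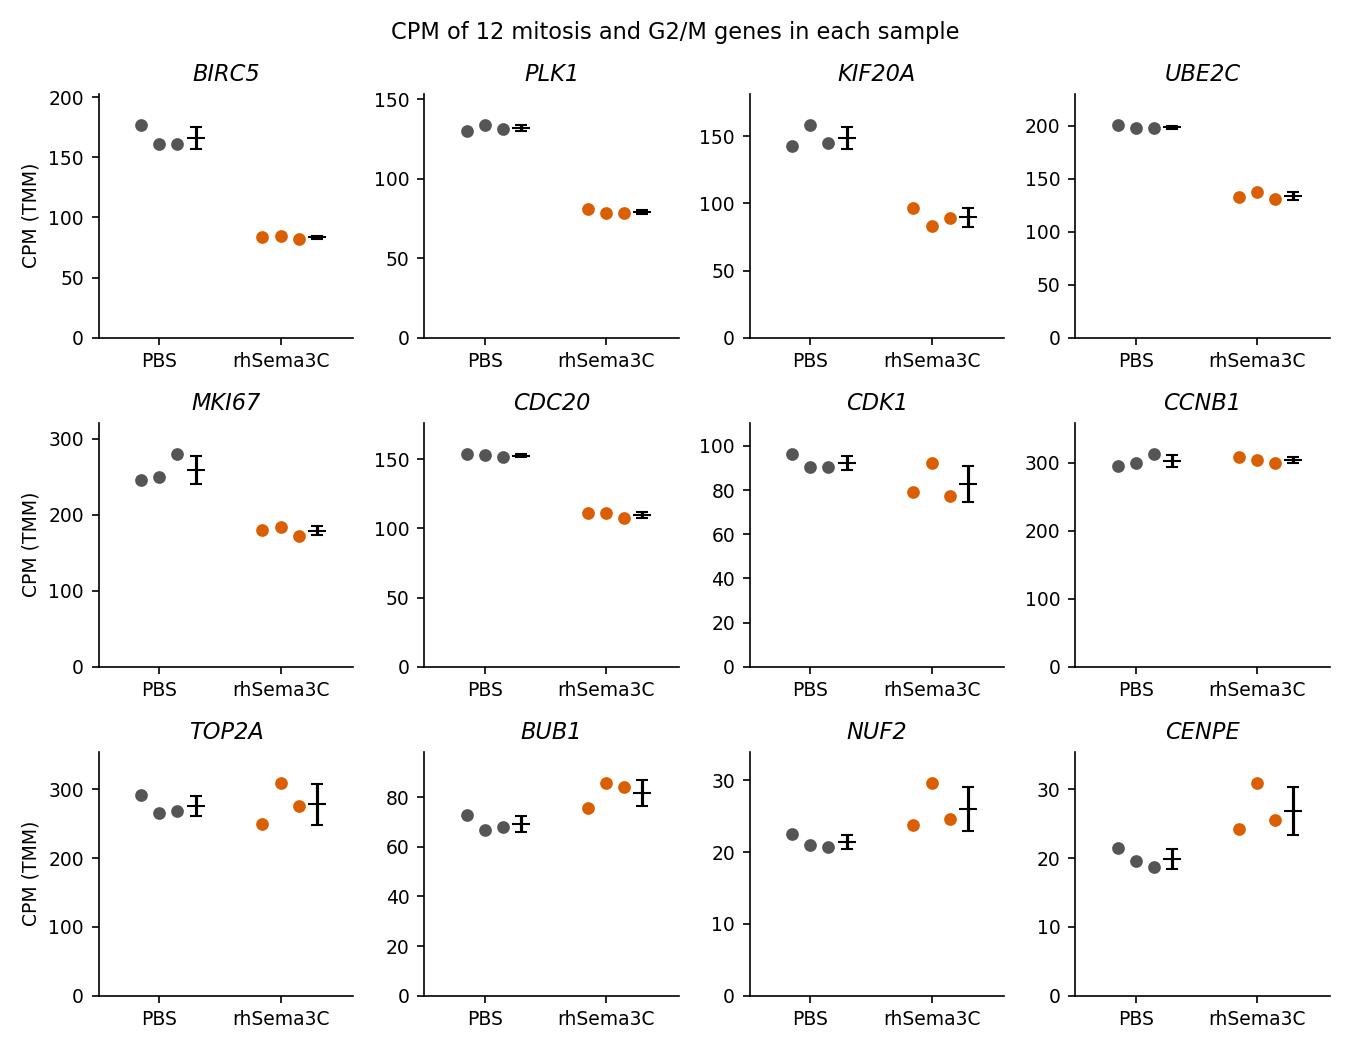
CPM after TMM normalisation of 12 of the genes, 1 panel each, with a point for each of the 3 PBS and 3 rhSema3C samples and a bar for the group mean and SD. BIRC5, PLK1, KIF20A, UBE2C, MKI67 and CDC20 are lower in all 3 treated samples, CDK1, CCNB1 and TOP2A overlap, and BUB1, NUF2 and CENPE are higher.

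The central spindle and cytokinesis genes included 3 that fell and none that rose among 5. KIF20A, a kinesin of the midzone (chr5:138178719-138187723), was at 142.7, 158.1 and 145.2 CPM in PBS and 96.8, 83.0 and 89.0 CPM in rhSema3C. Treated samples were all lower, at a log2 fold change of -0.73 ± 0.06 (adjusted p = 1.5e-06). The gene overlaps CDC23 on the other strand, which held 55.2% as many counts, and the strand setting of the counting is not given in the sources used here. ANLN, the anillin scaffold of the contractile ring, fell by 0.43 (adjusted p = 7.4e-05), from 179.9, 161.4 and 170.3 CPM to 118.6, 137.2 and 122.9 CPM. PRC1, which bundles midzone microtubules, fell by 0.24 (adjusted p = 0.0022), and a clone-named gene on the same strand held 41.5% as many counts as PRC1. KIF23 and ECT2, the midzone kinesin and the activator of RhoA at the furrow, had log2 differences of -0.04 and -0.13 and overlapping groups.

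Among 7 spindle motors and spindle proteins, 3 fell and 1 rose. KIF11, the motor that pushes the spindle poles apart, was at 80.6, 72.0 and 80.7 CPM in PBS and 52.3, 62.1 and 54.7 CPM in rhSema3C. No treated sample reached a control, and the log2 fold change was -0.46 ± 0.07 (adjusted p = 0.00016). TPX2, the activator of Aurora A, fell by 0.21 (adjusted p = 0.00061), from 303.1, 308.9 and 308.5 CPM to 270.6, 265.3 and 257.2 CPM. KIF2C, a depolymerase of centromeric microtubules, fell by 0.16 (adjusted p = 0.012), and this call was lost without rhSema3C replicate 3 (adjusted p = 0.059). HMMR, a spindle assembly protein, rose by 0.24 (adjusted p = 0.044) from 66.5, 54.5 and 56.3 CPM to 62.4, 79.3 and 67.4 CPM. Its groups overlapped, since PBS replicate 1 lay above rhSema3C replicate 1. DLGAP5, NUSAP1 and ASPM, which stabilise or organise spindle microtubules, had log2 differences of -0.14, -0.05 and 0.20 and did not pass the test.

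Kinetochore and spindle checkpoint genes held 4 of the 6 rises. Across all genes tested 31.7% rose and 30.6% fell. CENPE, the kinesin that carries chromosomes to the spindle equator (chr4:103105349-103198445), was at 21.5, 19.6 and 18.7 CPM in PBS and 24.3, 30.9 and 25.6 CPM in rhSema3C. All treated samples were higher, replicate 2 most, at a log2 fold change of 0.43 ± 0.10 (adjusted p = 0.0028). BUB1, a checkpoint kinase (chr2:110637528-110678063), measured 72.9, 67.0 and 68.1 CPM in PBS and 75.6, 85.6 and 84.0 CPM in rhSema3C. It rose by 0.24 ± 0.06 (adjusted p = 0.0039) without overlap. NUF2, a subunit of the NDC80 complex that grips microtubules, rose by 0.28 (adjusted p = 0.021), from 22.6, 21.0 and 20.8 CPM to 23.8, 29.6 and 24.7 CPM, and RGS5 on its other strand held 12.4% as many counts. CENPF, a large outer kinetochore protein, rose by 0.22 (adjusted p = 0.022), from 62.2, 58.9 and 61.5 CPM to 61.8, 77.5 and 73.9 CPM, with rhSema3C replicate 1 among the controls. SPC25, also of the NDC80 complex, fell by 0.29 (adjusted p = 0.037), from 13.6, 12.5 and 10.8 CPM to 10.1, 10.1 and 10.0 CPM. The fall of SPC25 was called with all 6 samples and without PBS replicate 3, and in none of the other fits that left 1 sample out. NDC80, BUB1B, MAD2L1 and TTK, the last 3 of the checkpoint, had log2 differences of 0.08, 0.05, 0.11 and 0.23 and did not pass. Counted by role, 3 of 5 kinetochore genes rose and 1 fell, and 1 of 4 checkpoint genes rose. After GC content and length were removed, neither role had a rise and each had 2 falls.

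MKI67 and TOP2A are both used as proliferation markers, and MKI67 fell. MKI67, which coats mitotic chromosomes (chr10:128096659-128126423), was at 245.5, 249.7 and 279.2 CPM in PBS and 180.2, 183.5 and 172.3 CPM in rhSema3C. It was lower in all treated samples, at a log2 fold change of -0.53 ± 0.05 (adjusted p = 6.9e-06). TOP2A, the topoisomerase that untangles sister chromatids, was at 292.5, 265.7 and 268.5 CPM in PBS and 249.7, 309.0 and 276.0 CPM in rhSema3C. Its groups overlapped around a log2 difference of 0.01 ± 0.07 (adjusted p = 0.88). Whether the changes of these genes differ was not tested. For LX-2 cells given rhSema3C, the paper reports more proliferation by an EdU incorporation assay. How the RNA levels here relate to that assay was not tested.

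Compared per length, the most abundant of the group in PBS was UBE2C at 145 ± 1.7 FPKM (SD, n = 3), followed by CCNB1 at 117 ± 3.6 FPKM. CENPE was lowest, at 1.88 ± 0.14 FPKM. Genes with more CPM in PBS tended to have the lower log2 fold changes (Spearman rho = -0.65 over the 36 genes, which share their libraries). The PBS level also enters the fold change, and its part in this rho was not tested. No value over all genes was set beside it, so it is only a description.

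Sets of calls depended on single samples. Treated replicate 2 was the highest of its group in 25 of the 36 genes, compared with 36.6% of all genes tested, and PBS replicate 1 was the highest of its group in 21, compared with 33.9%. Without rhSema3C replicate 2, 17 genes fell and 3 rose, CDK1, DLGAP5 and ECT2 joining the genes that fell and SPC25 leaving them. Without PBS replicate 2, 14 fell and 2 rose, and without PBS replicate 3, 15 fell and 2 rose. BUB1 and CENPE rose with any 1 sample left out, while CENPF, CDC25C, HMMR and NUF2 each lost the call in at least 1 such fit. Of the 15 that fell, 13 kept the call with any 1 sample left out, the exceptions being SPC25 and KIF2C.

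The GC content of the transcript moved with the change. Median GC content was 48.3% in the 15 genes that fell (38.3% to 57.9%), 39.8% in the 6 that rose (35.3% to 46.5%) and 40.8% in the remaining 15. Across the 36 genes, log2 fold change and GC content had a Spearman rho of -0.57, and across 14096 genes tested with a known GC content it was -0.49. Genes are not independent replicates, and these values are a description. Of the 13 mitotic genes with at least 45% GC, 11 fell and 1, CDC25C, rose, around a median log2 fold change of -0.36, where all genes of that GC range had -0.16. Of the 23 below 45%, 4 fell and 5 rose around a median of 0.03, where all genes had 0.30. In both ranges the median of the mitotic genes was below that of all genes. The cut at 45% was not planned beforehand, and the part of GC content in these changes was not tested.

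With GC content and transcript length removed from each library, an alternative added after the data were seen, 25 mitotic genes fell and none rose by edgeR, and the median was -0.24. Among all genes 28.7% fell and 27.3% rose in that fit. It kept 14 of the 15 falls, all but KIF2C, and none of the 6 rises, among which CENPE went to a log2 difference of 0.11 (adjusted p = 0.22) and BUB1 to -0.01 (adjusted p = 0.93). CCNB1 was then lower by 0.23 (log2 difference -0.23, adjusted p = 0.0004), TOP2A was at -0.29 (adjusted p = 0.00042) and CDK1 at -0.49 (adjusted p = 1.2e-06). Libraries of the groups also differed in the share of counts on mitochondrial genes, 4.75% to 5.42% in PBS and 3.73% to 3.93% in rhSema3C, and in the summed FPKM of the stellate cell markers, 1173 to 1230 in PBS and 925 to 985 in rhSema3C, of which VIM made up most. Their part in the results was not tested.

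**Figure D4:**
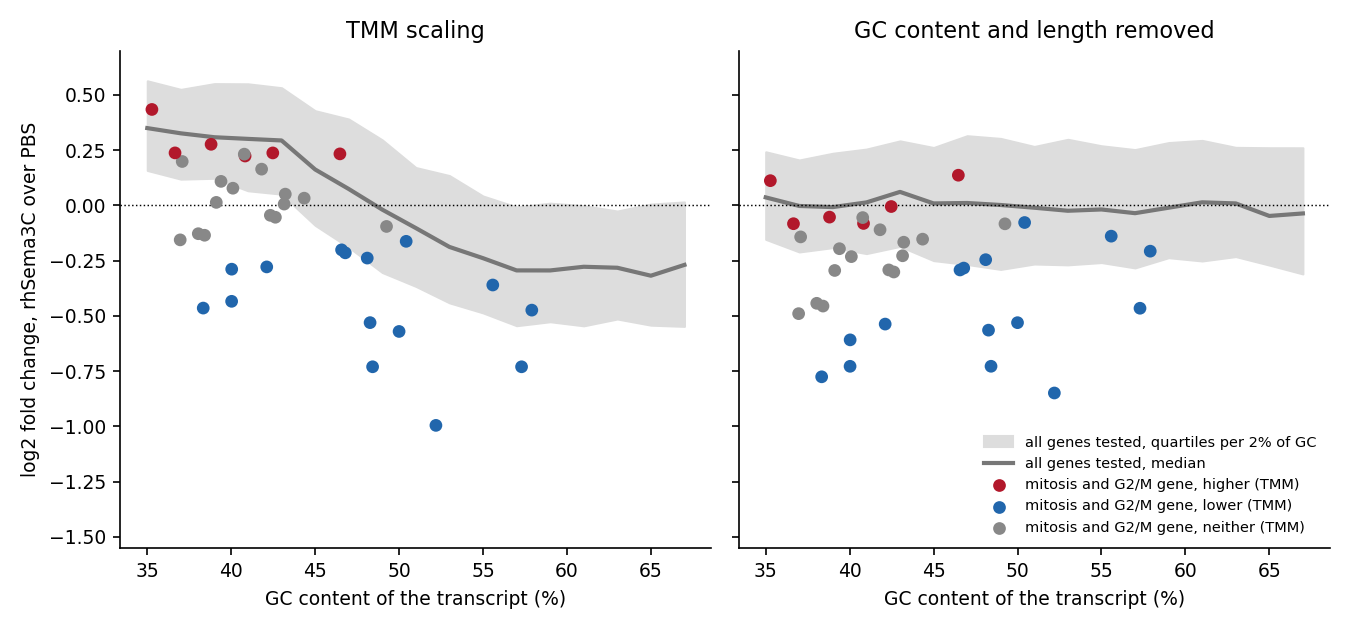
Log2 fold change against the GC content of the transcript (%) for the 36 genes, beside the median and quartiles of all genes in bins of GC content, under TMM (left) and with GC content and transcript length removed (right), with points coloured by the TMM call. On the left the genes that rose lie between 35.3% and 46.5% GC, and on the right no gene was called higher and 25 were called lower.

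Other genes of mitosis were counted by list. Of 154 such genes, 63 fell (40.9%) and 51 rose (33.1%) under TMM, where 30.6% of all genes fell and 31.7% rose. With library size alone 50 fell (32.5%) and 65 rose (42.2%), against 24.1% and 39.9% of all genes. With GC content and length removed, 70 fell (45.5%) and 19 rose (12.3%), against 28.7% and 27.3%. The lists that follow are under TMM unless stated, and their values are log2 fold changes.

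Among 34 further spindle motors, spindle proteins and cytokinesis genes, 18 fell (52.9%) and 9 rose (26.5%), with TUBB4B at -0.995 and GTSE1 at -0.93, and KIF15 and HMGB2 both at 0.49. Of 36 further checkpoint and kinetochore genes, 15 fell (41.7%) and 11 rose (30.6%), from CENPM at -1.03 to CENPC at 0.83. The list of 19 passenger complex, mitotic kinase and CDK1 control genes had 6 falls (31.6%) and 7 rises (36.8%). These were near the TMM shares of all genes. With GC content and length removed the list had 9 falls (47.4%) and 2 rises (10.5%), against 28.7% and 27.3% of all genes. Under TMM its phosphatase CDC25A was at -0.76 and the CDK1 inhibitory kinase PKMYT1 at -0.74. Another such kinase, WEE1, was at 0.42. The APC/C list had 6 falls (33.3%) and 7 rises (38.9%) of 18 under TMM, also near the TMM shares. With library size alone it had 6 falls (33.3%) and 10 rises (55.6%), against 24.1% and 39.9% of all genes. Under TMM, UBE2S, which extends the ubiquitin chains begun by UBE2C, was at -0.75 and the subunit ANAPC16 at 0.71. Condensin, cohesin and sister separation genes had 8 falls (34.8%) and 10 rises (43.5%) of 23, with the sororin gene CDCA5 at -0.83 and the cohesin subunit STAG2 at 0.56. DNA replication genes, of the preceding phase, had 29 falls (52.7%) and 13 rises (23.6%) of 55, with the flap endonuclease FEN1 at -0.97 and the CDC7 activator DBF4 at 0.73. After GC content and length were removed, the condensin, cohesin and sister separation list had 10 falls (43.5%) and 2 rises (8.7%). The further checkpoint and kinetochore genes then had 17 (47.2%) and 2 (5.6%), and the further spindle and cytokinesis genes 19 (55.9%) and 5 (14.7%). DNA replication genes had 32 (58.2%) and 8 (14.5%), and the APC/C list 6 (33.3%) and 4 (22.2%). In that fit 28.7% of all genes fell and 27.3% rose.

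**Figure D5:**
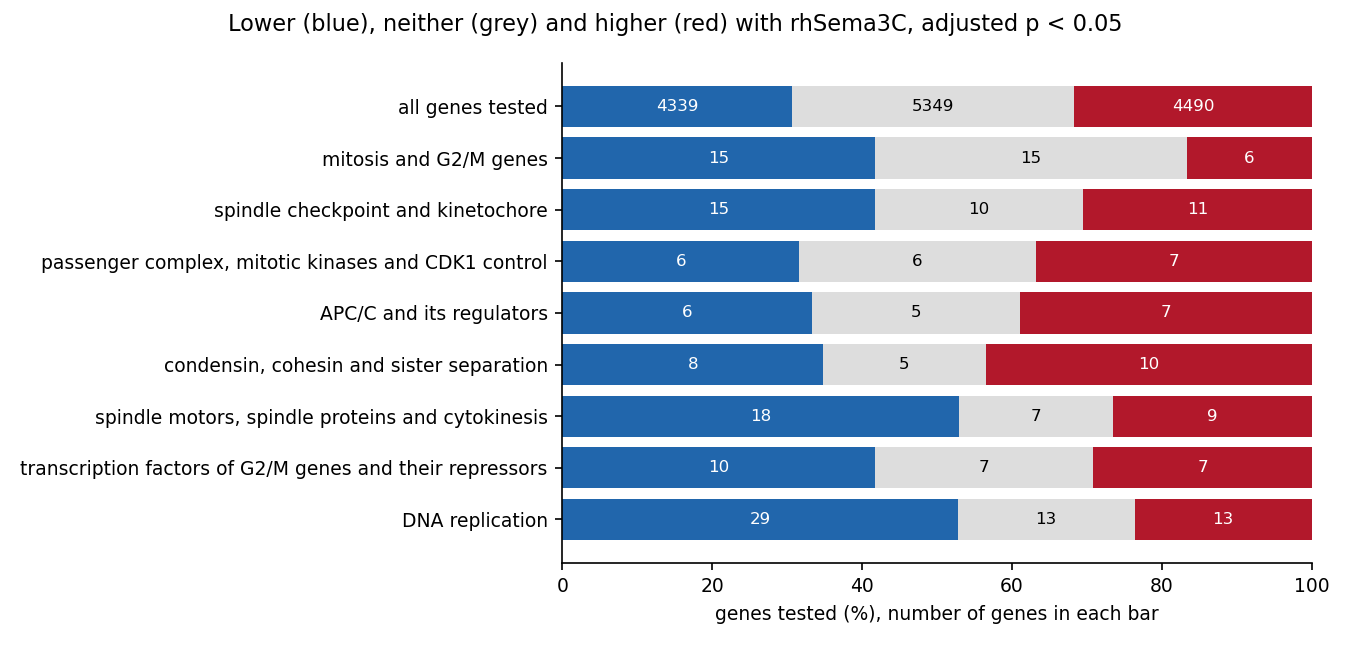
Share of the genes tested in each list that fell, did neither or rose with rhSema3C under TMM (%), with the number of genes in each bar. The 36 mitosis and G2/M genes show 15 falls and 6 rises, and the 55 DNA replication genes 29 falls and 13 rises.

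Of 24 transcription factors of these genes and their repressors, 10 fell (41.7%) and 7 rose (29.2%) under TMM. All genes tested had 30.6% and 31.7%. With library size alone 5 fell (20.8%) and 10 rose (41.7%), near the 24.1% and 39.9% of all genes. With GC content and length removed 9 fell (37.5%) and 4 rose (16.7%), against 28.7% and 27.3%, and none was past 2-fold. The values that follow are under TMM unless stated. E2F7, a repressor among the E2F factors, rose the most, by 1.10 ± 0.04 (adjusted p = 3.4e-09). Under TMM it was the only gene of this list past 2-fold. RBL2, the p130 pocket protein of DREAM, rose by 0.54 (adjusted p = 5.1e-06). FOXM1, the forkhead activator of late cell cycle genes, was at 434.7, 469.3 and 454.7 CPM in PBS and 325.8, 307.3 and 303.7 CPM in rhSema3C. MYBL2, which encodes B-MYB, was at 166.9, 168.4 and 165.3 CPM in PBS and 102.5, 99.7 and 106.1 CPM in rhSema3C. Both were lower in every treated sample, with log2 fold changes of -0.54 ± 0.05 (adjusted p = 1.8e-06) and -0.70 ± 0.04 (adjusted p = 1e-07). E2F4, a component of DREAM, fell by 0.56 (adjusted p = 4.9e-06), and E2F1, an activator of S phase genes, by 0.28 (adjusted p = 0.0002), the latter at 0.01 with GC content and length removed (adjusted p = 0.78). CDKN1A, the CDK inhibitor p21, rose by 0.31 ± 0.04 (adjusted p = 3.6e-05), with all treated samples above the controls.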

How the data were processed

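RNA of LX-2 cells was extracted with TRIzol, and mRNA libraries were read on an Illumina NovaSeq instrument. For every sample the authors deposited counts per gene as whole numbers. Beside them stood FPKM values, which the authors had normalised for length and depth. For their own comparison they used Cufflinks with cuffmerge. The aligner, the counter and its strand setting are not given in the sources used here, and the table's coordinates lie on GRCh38. A count of 1 can stand beside an FPKM near 0, so the counts may be fractional estimates rounded up.

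Groups came from the sample labels. Depth was 68267808 to 89245585 counts per sample, and replicates differed by more than counting noise (chi-square per degree of freedom 12.7 to 20.6). Of the 33900 genes, 14178 had an FPKM averaging 0.5 or more across samples, and these entered the edgeR quasi-likelihood test with TMM factors. Standard errors were the size of the log2 fold change over the square root of F. GC content and length were those of the longest GENCODE protein-coding transcript, or of the longest of any type where a gene had none. They were known for 14096 genes, and splines with 4 degrees of freedom took them out of each library. The alternatives were library size alone, median-of-ratios factors, DESeq2, limma on log2(FPKM + 1), log2(FPKM + 0.1) or log2(TPM + 1), other filters, a block on replicate number and leaving out each sample. The 36 genes could all be named, with at most the 2 largest rises and 2 largest falls past the threshold from each other list, and the regulators FOXM1, MYBL2, E2F1, E2F4 and CDKN1A. A further regulator on that list is not reported here. The genes, lists and tests were chosen with earlier results of these data known. R 4.3.3 was used with edgeR 4.0.16, limma 3.58.1 and DESeq2 1.42.0.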

Additional observations from a re-analysis of the deposited data

How the results depend on the processing

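The number of mitosis and G2/M genes that rose, 6 under TMM, was 12 with library size alone and with limma on log2(FPKM + 1) or log2(FPKM + 0.1), 18 on log2(TPM + 1), 11 with a minimum mean FPKM of 5, 2 with no filter and 0 with GC content and length removed. It ranged from 2 to 7 with 1 sample left out. The number that fell, 15, was 9 on log2(TPM + 1) and 25 with GC content and length removed, and ranged from 13 to 17 with 1 sample left out. By DESeq2, 16 fell and 7 rose. BIRC5 alone was past 2-fold in DESeq2, with median-of-ratios scaling and with no filter (a count of 1), and the count ranged from 0 to 1 with 1 sample left out. The median log2 fold change, -0.11, was -0.0027 with library size alone, -0.0089 and -0.010 with limma on log2(FPKM + 1) and log2(FPKM + 0.1), -0.026 with a minimum mean FPKM of 5, 0.11 on log2(TPM + 1) and -0.24 with GC content and length removed. It ranged from -0.14 to -0.073 with 1 sample left out. The minimum mean FPKM of 5 left out CENPE and ASPM, so that 34 of the mitosis and G2/M genes were tested. The 11 rises and the median of -0.026 at that setting are therefore of a smaller set of genes.

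Over all genes, 4490 rose and 4339 fell, with 6934 and 2428 on log2(TPM + 1), and 2630 and 2602 with a minimum mean FPKM of 5. That stricter filter tested fewer genes than the 14178, so its counts are of a smaller set. Of the other mitosis genes, 81 rose and 36 fell on log2(TPM + 1), and 19 rose with GC content and length removed. Of the DNA replication genes, 24 rose and 17 fell on log2(TPM + 1), and 8 rose with GC content and length removed.

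Some genes changed sign (log2 values). PTTG1, NUSAP1 and KIF23 went to 0.014, 0.055 and 0.064 with library size alone, 0.0070, 0.048 and 0.052 with limma on log2(FPKM + 1), 0.0072, 0.049 and 0.055 on log2(FPKM + 0.1) and 0.010, 0.052 and 0.061 with a minimum mean FPKM of 5. On log2(TPM + 1), the values were TPX2 at 0.012, AURKA at 0.026, KIF2C at 0.065, CDK1 at 0.067, DLGAP5 at 0.086, ECT2 at 0.093, PTTG1 at 0.13, NUSAP1 at 0.17 and KIF23 at 0.18. With GC content and length removed they were CCNB1 at -0.23, TOP2A at -0.29, CCNB2 at -0.15, BUB1B at -0.17, NDC80 at -0.23, MAD2L1 at -0.20, NEK2 at -0.11, ASPM at -0.14, CENPF at -0.082, TTK at -0.055, BUB1 at -0.0051, HMMR at -0.083 and NUF2 at -0.053. CCNB1 was at -0.0068 with DESeq2, -0.0069 with median-of-ratios scaling and -0.0064 with no filter. With 1 sample left out, CCNB1 ranged from -0.011 to 0.029, TOP2A from -0.067 to 0.083, CCNB2 from -0.0023 to 0.060 and NDC80 from -0.012 to 0.15. The lowest values came without rhSema3C replicate 2 for TOP2A and NDC80, and without PBS replicate 3 for CCNB2. The cause of these changes was not tested.

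Deviations from the group mean correlated weakly between samples with the same replicate number (-0.0041, 0.058 and -0.027 across genes). Between samples with different numbers the correlations ran from -0.070 to 0.071. With 3 samples a group these values cannot decide whether the samples were paired. With a replicate block, 14 genes fell and 5 rose, and over all genes 4221 rose and 4120 fell. All 36 genes had ample counts, and 3 samples a group limit how small a difference can be called.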
